A study of Mus musculus with 6 samples.

Results

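The small leucine-rich proteoglycans were followed in primary white adipocytes given a mimic of miR-182-5p. The 9 genes, of 22609 gene symbols listed, are Fmod, Dcn, Bgn, Lum, Prelp, Ogn, Aspn, Omd and Podn, taken by symbol as a protein family. Fmod (fibromodulin) headed the choice because it had the smallest p among genes higher with the mimic in these same samples, so its change is described here without a test. RNA sequencing covered 3 mimic control samples and 3 samples treated with the miR-182-5p mimic, all from stromal vascular cells of the inguinal fat of male C57BL6 mice, differentiated in culture. Each library held between 25869810 and 28796712 reads on genes. The labels give the control as a control vector, the treated cells as miR182 overexpression, the delivery as electroporation and the age of the mice as 3 weeks, while the study's methods describe a transfected mimic and another age. The model is a mixed primary culture and not sorted adipocytes. Neither source says whether the samples are separate cultures, so p-values measure the spread between these samples, which may be technical. One library stood somewhat apart: over genes, mimic replicate 1 differed from mimic replicates 2 and 3 with a chi-square per degree of freedom of 5.01 and 7.19, against 2.13 between those replicates and 2.53 to 3.10 among controls. Without it Lum (log2 fold change -0.98) and Dcn (-0.63) were still called. The log2 fold change of Fmod, which was chosen on these samples, was then 1.19.

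Small leucine-rich proteoglycans are secreted proteins whose curved arrays of leucine-rich repeats bind fibrillar collagen and set how thick and how evenly spaced its fibrils become. Several also hold growth factors of the TGF-β family in the matrix or bind cell surface receptors. In white fat they are made mainly by fibroblasts and preadipocytes, and they form part of the collagen scaffold around the fat cells.

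The mature mouse miR-182-5p (RefSeq, GRCm38.p6, chromosome 6, minus strand, 30165962 to 30165986) is shown because its seed, bases 2 to 8, is the stretch through which a miRNA mainly recognises its messages. The seed is in capitals.
mmu-miR-182-5p: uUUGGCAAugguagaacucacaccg
The study's methods give no sequence for the mimic, and under qRT-PCR they print as mature mouse miR-182-5p another sequence, whose seed differs from this one. The site counts given here use the RefSeq seed and bear on the mimic only if it carries that seed. The seed pairs with TTGCCAA in a message, and an A after that match gives the longer site TTGCCAAA.

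The family did not move one way. With the mimic, the level of Fmod was 2.24 times its control level (181 ± 6.56 against 80.7 ± 0.915 CPM, SD, n = 3). Lum (lumican) fell to 0.497 of its control level and Dcn (decorin) to 0.640, Ogn (osteoglycin) and Podn (podocan) fell less, Prelp rose by 18.3%, and Bgn (biglycan), by far the most abundant member, differed by 2.46% only. CPM are read counts brought to a common scaled library size. A gene was called when it changed at least 1.5-fold with an adjusted p under 0.05 in edgeR's quasi-likelihood test, adjusted over all 13117 genes tested.

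By that rule 3 of the 9 members were called, 1 higher and 2 lower, against 7.45% of the 13117 genes (1.97% higher and 5.48% lower). By adjusted p alone 7 of 9 members passed, 3 higher and 4 lower, against 46.7% of the genes (23.2% higher and 23.5% lower). The groups did not overlap for 7 of 9 members, 3 with the mimic above and 4 below, against 54.8% of the genes (27.3% above and 27.5% below). All 9 members passed the filter on low counts in both groups. The median log2 fold change was -0.05 over the members and -0.00434 over all genes tested. These counts include Fmod, which was chosen on this contrast.

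**Figure D1:**
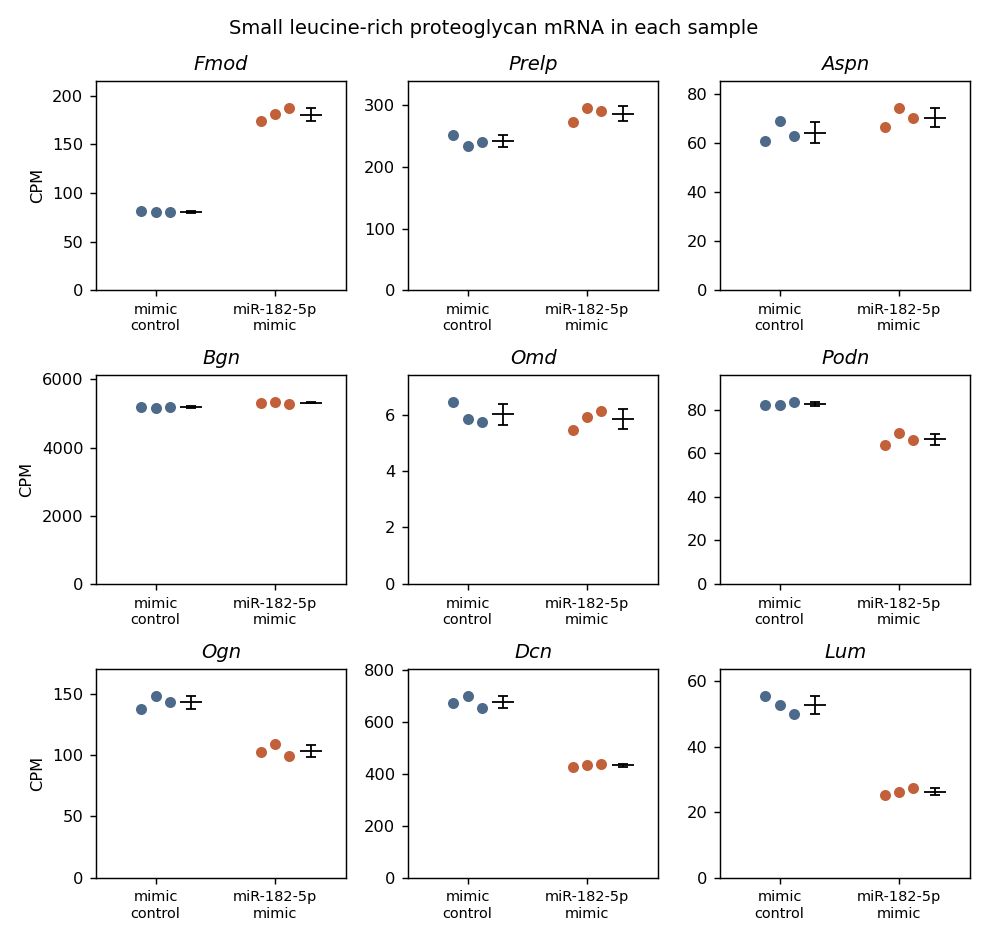
CPM of each of the 9 proteoglycans (1 panel per gene, each axis from 0) in the 3 mimic control samples (blue) and the 3 miR-182-5p mimic samples (orange), with the mean ± SD in black beside the points. The groups stand apart for Fmod, Prelp, Bgn, Podn, Ogn, Dcn and Lum, and overlap for Aspn and Omd.

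Fibromodulin belongs to the second class of the family, whose members can carry keratan sulfate chains and sulfated tyrosines, and it binds collagen I and takes part in fibril assembly. Fmod was at 81.8, 80.1 and 80.3 CPM in the mimic control samples and at 174, 181 and 187 CPM with the mimic. The groups were far apart, with the lowest mimic sample well above the highest control sample. The fold was 2.24, a log2 fold change of 1.16 (SE 0.03), and 99.7% of the genes tested had a lower log2 fold change. As raw reads this was 2082, 2092 and 2097 against 5083, 4771 and 5286, so counting error was small.

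Lumican, the closest collagen-binding relative of fibromodulin in this class, went in the opposite direction. Lum was at 55.5, 52.8 and 50.1 CPM with mimic control and at 25.2, 26.3 and 27.2 CPM with the mimic. No mimic sample came near a control sample. The log2 fold change was -1.01 (SE 0.05, edgeR adjusted p = 2.48e-09), and 1.62% of the genes tested had a lower one.

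Prelp, which encodes a heparin-binding and collagen-binding protein of the same class, read 252, 233 and 240 CPM in controls and 272, 295 and 291 CPM with the mimic. The groups did not overlap, but the step was small beside the change of Fmod, its neighbour on chromosome 1. The log2 fold change was 0.24 (SE 0.04, edgeR adjusted p = 8.39e-05), under the 1.5-fold line. Prelp shares 350 exon bases with Gm15851 on the other strand, and whether reads were counted by strand is not given in the sources used here.

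Osteomodulin, a tyrosine-sulfated protein best known from bone, was the scarcest member. Omd was at 6.44, 5.86 and 5.75 CPM in controls and 5.45, 5.92 and 6.13 CPM with the mimic, and the groups overlapped. The fit rested on 150 to 173 reads a sample and gave a log2 fold change of -0.05, with a 95% interval from -0.26 to 0.17 (edgeR adjusted p = 0.735), so a change within that interval was not detectable at this depth. Its sign turned when the first sample of either group was left out.

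The first class of the family holds decorin, biglycan and asporin. Decorin carries a chondroitin or dermatan sulfate chain, binds collagen I and can bind TGF-β. Dcn was at 675, 702 and 656 CPM with mimic control and at 428, 434 and 438 CPM with the mimic. The groups were well apart, and the mimic samples lay closer together than the controls. The log2 fold change was -0.64 (SE 0.03, edgeR adjusted p = 9.92e-10), just past the 1.5-fold line. It did not pass a test against a change of 1.5-fold itself (edgeR glmTreat, adjusted p = 0.28).

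Biglycan is the relative of decorin that carries a pair of such chains and, in soluble form, can bind Toll-like receptors. Bgn read 5198, 5165 and 5196 CPM in controls and 5319, 5332 and 5290 CPM with the mimic. The groups did not overlap, yet the log2 fold change was 0.04 with a 95% interval from -0.03 to 0.10 (edgeR adjusted p = 0.391).

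Asporin, which has a stretch of aspartates and mostly lacks a sugar chain, was at 60.9, 69.2 and 63.0 CPM in controls and 66.7, 74.2 and 70.5 CPM with the mimic. The groups overlapped. The log2 fold change of Aspn was 0.13 (SE 0.05, edgeR adjusted p = 0.0482), and the adjusted p was under 0.05 in 6 of 13 alternative analyses, in which it ranged from 0.00995 to 0.201.

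Osteoglycin (mimecan) and podocan belong to other classes of the family. Osteoglycin is a collagen-binding protein of connective tissue, and podocan, known from kidney podocytes, binds collagen I. Ogn was at 138, 148 and 143 CPM in controls and at 102, 109 and 98.8 CPM with the mimic. Podn was at 82.1, 82.2 and 83.5 CPM in controls and at 63.9, 69.2 and 66.1 CPM with the mimic. For both genes every mimic sample lay below every control sample. The log2 fold change was -0.47 (SE 0.04, edgeR adjusted p = 2.76e-07) for Ogn and -0.32 (SE 0.04, edgeR adjusted p = 8.51e-06) for Podn, both under the 1.5-fold line.

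**Figure D2:**
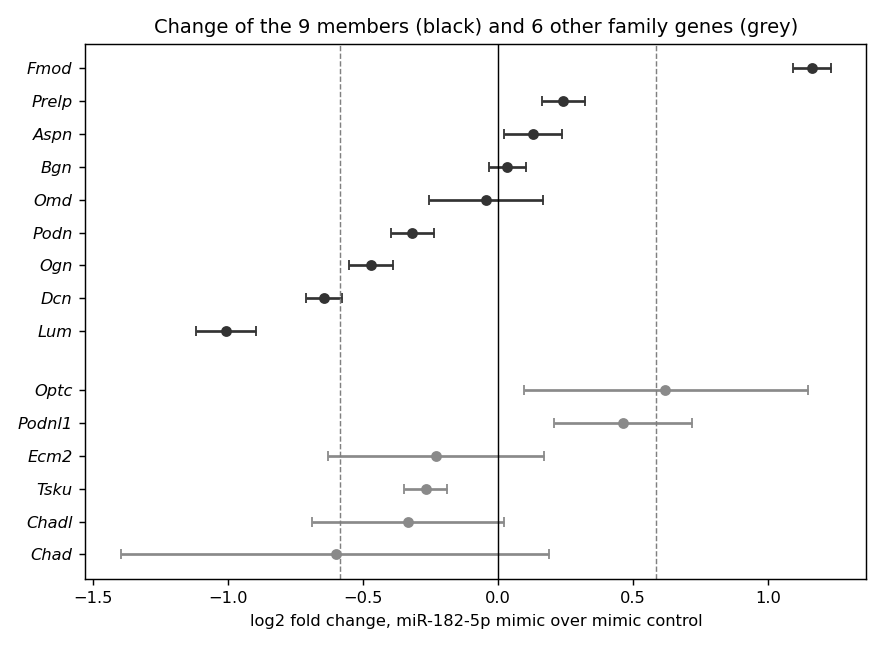
Log2 fold change, mimic over mimic control, with its 95% confidence interval from edgeR for the 9 members (black) and the 6 other genes of the family that passed the filter on low counts (grey). Dashed lines mark a 1.5-fold change. Fmod (1.16) and Lum (-1.01) sit at opposite ends of the members.

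Because Bgn took most of the family's reads, the sum of the 9 members hid these changes. The sum was 6549, 6539 and 6517 CPM with mimic control and 6457, 6527 and 6476 CPM with the mimic, and the groups overlapped. Without Bgn the sum was 1349 ± 25.8 CPM in controls and 1172 ± 30.5 CPM with the mimic (SD, n = 3), and the groups did not overlap. Bgn took 79.4% ± 0.36 of the family's reads in controls and 81.9% ± 0.394 with the mimic, while the share of Dcn was 10.4% ± 0.34 and 6.68% ± 0.079.

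Ratios between members within a sample do not depend on how the library was scaled. The ratio of Fmod reads to Lum reads was 1.475, 1.517 and 1.604 in the control samples and 6.91, 6.88 and 6.87 in the mimic samples. It was thus 4.50 times as high with the mimic, and the 3 mimic samples were almost identical. Fmod and Lum had the highest and lowest log2 fold changes of the members. The direction of their ratio was thus fixed by the choice of this pair. The ratio of Bgn to Dcn reads was 7.66 ± 0.283 and 12.3 ± 0.186, and that of Ogn to Aspn reads, in the same cluster on chromosome 13, was 2.22 ± 0.072 and 1.47 ± 0.065 (SD, n = 3). The directions of these ratios too follow from the log2 fold changes given above and are no separate evidence. With 3 samples a group an exact permutation test of such a ratio cannot go below p = 0.1, so none is given.

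**Figure D3:**
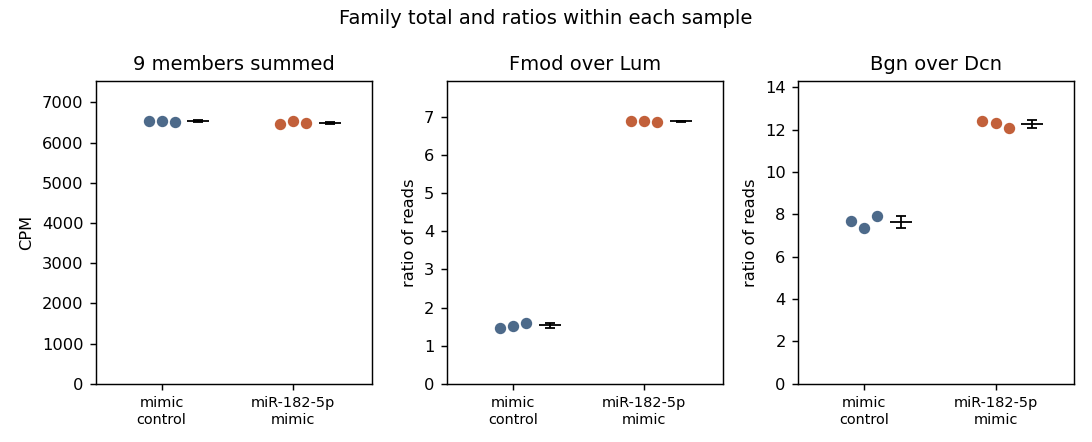
The summed CPM of the 9 members, the ratio of Fmod to Lum reads and the ratio of Bgn to Dcn reads in each sample (points, blue for mimic control and orange for mimic), with the mean ± SD in black and axes from 0. The summed level overlaps between groups, while both ratios lie higher in every mimic sample. The directions of the ratios follow from the log2 fold changes of their genes.

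To compare levels between genes, CPM were divided by the length in kb of the coding transcript with the longest 3′-UTR. In the control samples the order was Bgn (2144 CPM per kb), Dcn (385), Prelp (66.9), Ogn (55.7), Aspn (27.9), Podn (26.1), Fmod (25.9), Lum (21.6) and Omd (2.67). Podn and Fmod overlapped there and the other neighbours in the order did not. Aspn and Podn nearly touched, with the lowest Aspn control sample at 26.36 and the highest Podn control sample at 26.35 CPM per kb. With the mimic the order was Bgn (2197 CPM per kb), Dcn (246), Prelp (79.2), Fmod (58.0), Ogn (40.2), Aspn (30.5), Podn (20.9), Lum (10.7) and Omd (2.59), with no overlap between neighbours. Fmod thus stood at rank 7 in controls and at rank 4 with the mimic, ahead of Ogn, Aspn and Podn. With the length of all exons of a gene, an alternative chosen after seeing the data, Fmod went from rank 6 to rank 4 and Prelp (79.2 CPM per kb) stood above Dcn (74.2) with the mimic.

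**Figure D4:**
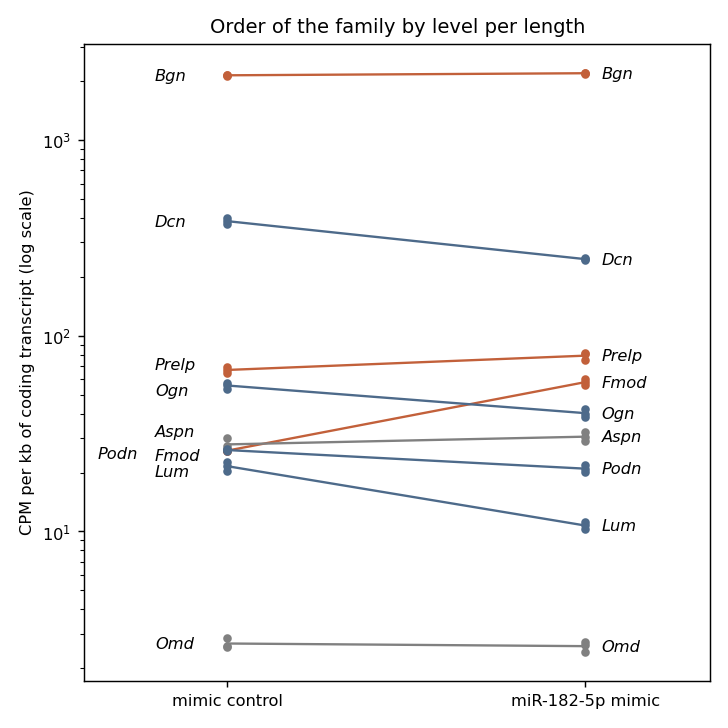
CPM per kb of coding transcript (log axis) of the 9 members in each mimic control sample (left) and each mimic sample (right), with lines joining the group means. Orange marks genes whose mimic samples all lie above the controls, blue those whose mimic samples all lie below, and grey those that overlap. The line of Fmod crosses those of Podn, Aspn and Ogn.

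The seed match TTGCCAA was in the longest 3′-UTR of 0 of the 9 members (GENCODE M21 transcripts, GRCm38), where 12.5% of 12517 tested genes with a 3′-UTR held it. The shorter match TGCCAA was in 0 of the 9 as well, against 34.3% of the genes. The 3′-UTRs searched ran from 435 bases (Omd) to 2302 bases (Prelp), and the median over genes was 1203 bases. Only the given strand of the message was searched. A match is a description of letters and not a functional site, and its absence says only that these letters are not in the window.

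Outside the 3′-UTR the match to the full seed was found in 2 members. In coding sequence only Ogn of the members held it, where 16.1% of the genes did. Ogn held it as TTGCCAAA at bases 500 to 507 of its transcript, and 4.83% of the genes carried that longer site in coding sequence. The 5′-UTR of Omd held TTGCCAA at bases 311 to 317, and no share over genes was taken for 5′-UTRs. Both are shown with their surroundings, with the match in capitals.
Ogn, coding: ctgtaccaccaTTGCCAAAggaatcagctt
Omd, 5′-UTR: cagttaaaggaTTGCCAAttcatcagtccc
Ogn also held TGCCAA at 3 other places in its coding sequence, among them the pair that follows with an A after the match.
Ogn, coding, bases 576 to 582: attttgcagacaTGCCAAAcctaagaagac
Ogn, coding, bases 730 to 736: tactttacttaaTGCCAAAcacaacaaaat
Aspn and Podn each held TGCCAA at 3 places in their coding sequence, Lum and Omd at 1, and Fmod at 1 place in its 5′-UTR. With Ogn, 5 of 9 members thus held it in coding sequence, against 46.5% of the genes. The match with an A after it, TGCCAAA, was in the coding sequence of Aspn (2 places) and Podn (1 place) as well as of Ogn. In coding sequence 16.5% of the genes held TGCCAAA. Dcn, which was called lower, held no TGCCAA anywhere in its transcript, and neither did Bgn or Prelp. Lum, the member with the lowest log2 fold change, thus had no match to the full seed anywhere.

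By position, the family lies in clusters. Members of a cluster shared a direction on chromosome 10, while the levels of Fmod and Prelp on chromosome 1 both lay higher but by unequal amounts. Coordinates are those of GRCm38, matched by symbol. The counts were made on mm9 per the submitters' processing notes, whose coordinates are not used here. On chromosome 1, Prelp (133910304 to 133921414, minus strand) and Fmod (134037254 to 134048277, plus strand) lie 115.8 kb apart, with Optc beside Prelp. On chromosome 10, Dcn (97479609 to 97518143) and Lum (97565128 to 97572703) lie 47.0 kb apart on the plus strand, and both were called lower. On chromosome 13, Aspn (49544443 to 49567565), Omd (49582462 to 49592822) and Ogn (49608046 to 49624501) follow each other within the span of Cenpp, a centromere protein gene on the other strand.

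The log2 fold changes of these 3 neighbours were 0.13 for Aspn, -0.05 for Omd and -0.47 for Ogn. Cenpp shares 7 exon bases with Aspn and none with Omd or Ogn. It was low, at 2.23 CPM in controls and 1.28 CPM with the mimic. Bgn lies on chromosome X (73483602 to 73495933) and Podn on chromosome 4 (108014791 to 108096445).

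The other 9 genes of the family were scarce or moved little. Of these, 6 passed the filter and 0 were called with edgeR, DESeq2 or limma-voom, although 2 passed by edgeR's adjusted p alone and 3 by its unadjusted p. With edgeR 7.45% of all genes were called and 46.7% passed by adjusted p alone. Tsku (tsukushi, a secreted inhibitor of BMP and Wnt signals) fell from 62.7 ± 1.12 to 52.1 ± 0.407 CPM (log2 fold change -0.27, edgeR adjusted p = 4.46e-05), and Podnl1, a relative of podocan, rose from 3.63 ± 0.0397 to 5.01 ± 0.559 CPM (0.46, edgeR adjusted p = 0.00554).

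Opticin (Optc), known from the eye and next to Prelp, was at 0.76 ± 0.092 and 1.17 ± 0.277 CPM, a log2 fold change of 0.62 with an edgeR adjusted p of 0.0509. Ecm2, Chad and Chadl had log2 fold changes of -0.23, -0.60 and -0.33, none past the adjusted p. That of Chad was -0.13 without mimic control replicate 1, which held 32 of its reads against 16 and 14 in the other controls. Kera (keratocan) and Epyc (epiphycan), next to Lum and Dcn on chromosome 10, had at most 1 and 4 reads in a sample, and Nyx (nyctalopin) at most 8.

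The genes whose profile over the 6 samples was most like that of Fmod were found by the root mean square difference of log2 CPM, each gene centred on its control mean. Col11a1, a collagen that seeds and limits the width of fibrils, was closest, with a difference of 0.033. It was at 28.4, 28.4 and 28.2 CPM in controls and 64.0, 64.6 and 64.2 CPM with the mimic. Next came Avpr1a (a vasopressin receptor, 0.049), Pde2a (a cyclic nucleotide phosphodiesterase, 0.055), Rgs11 (a regulator of G protein signaling, 0.060) and Plxna4 (a plexin, 0.098). Rgs11 was scarce, with 24 to 27 reads in a control sample. No other member was near Fmod: its difference was 0.651 from Prelp and 1.53 from Lum. With profiles centred on controls, this measure largely follows the fold change, and Fmod was chosen as a riser. Among members, Bgn and Omd (0.090), Bgn and Aspn (0.099) and Ogn and Podn (0.116) were the most alike. These values are descriptions over 6 samples that share libraries.

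The collagens to which the proteoglycans bind changed in both directions. Of 13 tested genes in the list, 1 was called higher and 1 lower, and by adjusted p alone 4 were higher and 4 lower, with a median log2 fold change of -0.01. The shares over all genes were 7.45% called and 46.7% by adjusted p alone. Col11a1 had a log2 fold change of 1.18 (SE 0.04, edgeR adjusted p = 2.90e-11). Col14a1, a collagen on the fibril surface that can bind decorin, fell from 34.1 ± 2.92 to 11.95 ± 1.601 CPM (log2 fold change -1.51, SE 0.09, edgeR adjusted p = 7.41e-09).

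The most abundant fibril collagens changed less. Among genes named here after their values were seen, Col1a1 was at -0.05 (edgeR adjusted p = 0.378), Col1a2 (-0.11, edgeR adjusted p = 0.0225) and Col5a1 (-0.25, edgeR adjusted p = 3.06e-05) were lower, and Col3a1 fell (-0.32, edgeR adjusted p = 1.23e-05), while Col5a2 (0.33, edgeR adjusted p = 1.19e-06) and the fibril-associated Col12a1 (0.38, edgeR adjusted p = 7.05e-07) rose.

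Enzymes that cut the proteoglycans, or process procollagen together with them, gave 1 gene called higher and 3 lower of 10 tested, with a median log2 fold change of -0.23. By adjusted p alone 2 were higher and 6 lower. Over all genes 1.97% were called higher and 5.48% lower, and by adjusted p alone 23.2% were higher and 23.5% lower. Mmp2, a gelatinase, fell from 711 ± 14.8 to 399.9 ± 10.7 CPM (log2 fold change -0.83, edgeR adjusted p = 5.11e-11), and Mmp3 (stromelysin) from 30.6 ± 1.38 to 14.1 ± 2.51 CPM (-1.12, edgeR adjusted p = 3.17e-07). Pcolce2, an enhancer of procollagen cleavage, had a log2 fold change of -0.59 (edgeR adjusted p = 3.00e-05), which fell under the 1.5-fold line without the first control sample (-0.58) or without mimic replicate 2 or 3 (-0.55 in each). Tll1, a relative of the procollagen protease Bmp1, rose from 1.47 ± 0.272 to 2.71 ± 0.366 CPM (0.88, edgeR adjusted p = 0.00114). Bmp1 itself was at 454 ± 12.5 and 470.3 ± 6.41 CPM. Adamts5, an aggrecanase named after its value was seen, fell (-0.58, edgeR adjusted p = 2.90e-09).

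Among growth factors and receptors that the proteoglycans bind, 16 genes were tested, 2 were called lower and none higher, and by adjusted p alone 1 was higher and 10 lower (median log2 fold change -0.14). Over all genes 5.48% were called lower, and by adjusted p alone 23.2% were higher and 23.5% lower. Tgfbr3 (betaglycan), a TGF-β co-receptor that is itself a proteoglycan, fell from 349 ± 7.52 to 153 ± 2.16 CPM (-1.19, SE 0.03, edgeR adjusted p = 1.595e-12). Tlr2, a receptor that soluble biglycan can bind, was at 3.14 ± 0.508 and 2.01 ± 0.226 CPM (-0.64, edgeR adjusted p = 0.0052). Its log2 fold change was -0.53 without the second control sample and -0.57 without the second mimic sample. Ctgf, a matrix-inducing growth factor named after its value was seen, was the only gene of the list that rose by adjusted p (0.52, edgeR adjusted p = 8.51e-06).

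For chondroitin and dermatan sulfate synthesis, which builds the chains of decorin and biglycan, 20 genes were tested and 0 were called with edgeR, DESeq2 or limma-voom. With edgeR 7.45% of all genes were called. By edgeR's adjusted p alone 4 were higher and 5 lower, a share near the 46.7% of all genes, 10 had an unadjusted p under 0.05, and the median log2 fold change was -0.04. Named after their values were seen, Csgalnact1, which starts chondroitin chains, rose (0.47, edgeR adjusted p = 1.94e-08), while its relative Csgalnact2 fell (-0.25, edgeR adjusted p = 3.06e-04). The sulfotransferases Chst11 (-0.31, edgeR adjusted p = 6.14e-05) and Chst15 (-0.42, edgeR adjusted p = 3.44e-05), named in the same way, fell.

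For keratan sulfate synthesis and tyrosine sulfation, which act on the class of fibromodulin and lumican, 11 genes were tested, 1 was called lower and none higher (2 higher and 2 lower by adjusted p alone, median -0.01). The shares over all genes were 7.45% called and 46.7% by adjusted p alone. Chst1, a keratan sulfate sulfotransferase, fell from 5.76 ± 0.624 to 3.31 ± 0.228 CPM (-0.79, edgeR adjusted p = 9.56e-05). Chst2 of the same list, named after its value was seen, was at 20.8 ± 0.504 and 20.7 ± 1.53 CPM (-0.01, edgeR adjusted p = 0.926). The tyrosine sulfotransferases, named after their values were seen, parted, with Tpst1 lower (-0.48, edgeR adjusted p = 3.38e-06) and Tpst2 higher (0.23, edgeR adjusted p = 2.28e-04).

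Among the core proteins of other proteoglycans, 20 were tested, 2 were called lower and none higher, and 6 were higher and 8 lower by adjusted p alone (median -0.17). Over all genes 5.48% were called lower and 1.97% higher, and 46.7% passed by adjusted p alone. Beside Tgfbr3, Smoc1, a calcium-binding matrix protein, was called lower (-0.62, edgeR adjusted p = 2.53e-07), with -0.55 and no call without the first mimic sample.

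**Figure D5:**
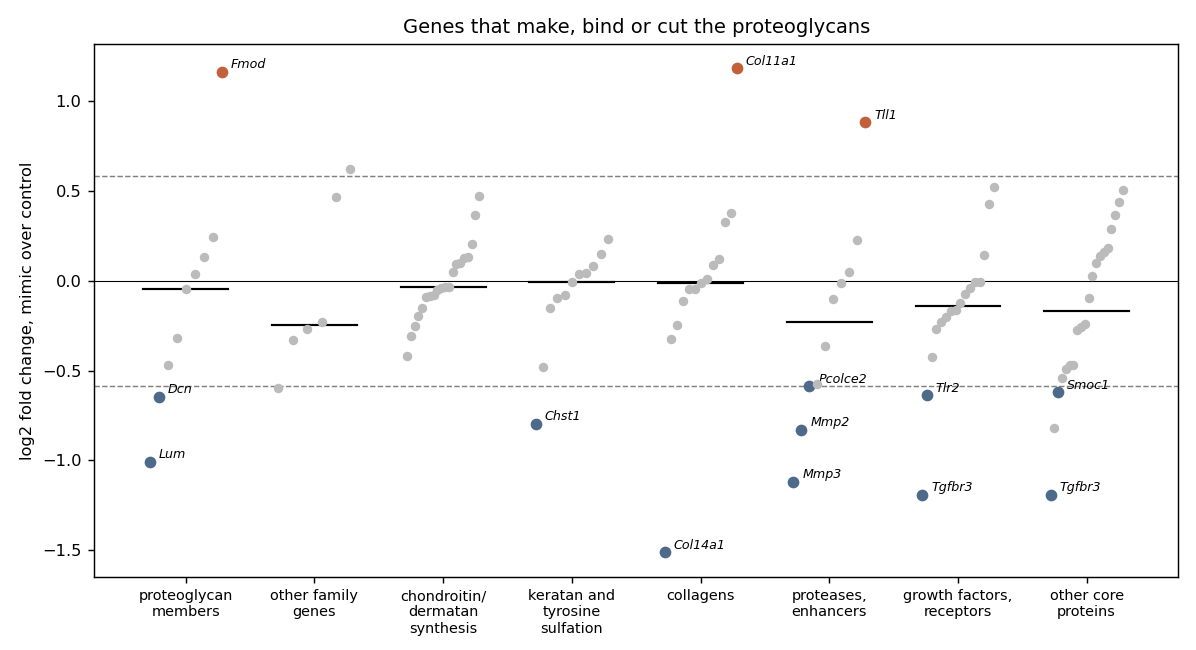
Log2 fold change, mimic over mimic control, of every tested gene in the 9 members and in 7 related lists (grey points, with called genes in orange if higher and blue if lower), with the list median as a black bar and dashed lines at a 1.5-fold change. Tgfbr3 stands in 2 lists. Called genes lie on both sides of 0 for the members, the collagens and the proteases.

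Marker genes of the cells in the culture moved alongside these results. Of 10 tested progenitor and fibroblast markers, 4 were called lower and none higher (Cd34, Pdgfra, Pi16 and Icam1), 8 were lower and 1, Thy1, higher by adjusted p alone, and the summed level was 2905 to 2971 CPM in controls and 2500 to 2650 CPM with the mimic. Of 10 adipocyte markers 2 were called lower (Retn and Fabp4), and by adjusted p alone 7 were lower, 1 (Lep, 0.37) was higher, and Plin1 (-0.06) and Lipe (-0.09) did not pass. Over all genes 1.97% were called higher and 5.48% lower, and by adjusted p alone 23.2% were higher and 23.5% lower. The summed adipocyte level, mostly Lpl and Fabp4, was 12701 to 13460 CPM in controls and 8764 to 9927 CPM with the mimic. Defining adipocyte genes were high in both groups (Adipoq at 928 ± 20.6 and 675 ± 56.0 CPM). Mimic replicate 1 was the lowest mimic sample for Adipoq (616 CPM against 683 and 727) and the highest for Acta2 (3031 CPM against 2817 and 2826), and without it their log2 fold changes were -0.40 and 0.26. In such bulk samples fewer cells of a type and less RNA per cell cannot be told apart. The part of these shifts in the levels of Dcn, Lum, Ogn and Podn was not tested.

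Of 5 smooth muscle and myofibroblast markers, none was called and 3 were higher by adjusted p, against 7.45% and 23.2% of all genes. Their sum was 3454 to 3626 CPM in controls and 4130 to 4496 CPM with the mimic. Acta2, the actin of smooth muscle and myofibroblasts, rose (0.29, edgeR adjusted p = 1.95e-05). The part of this shift in the level of Fmod was not tested. Macrophage markers summed to 11.5 to 13.03 CPM and 10.9 to 13.3 CPM, with Ptprc, Mrc1, Emr1 and Itgam near 0 in all samples. Endothelial markers summed to 7.78 to 9.15 CPM and 4.97 to 5.67 CPM, where Pecam1 and Tie1 were near 0. Of 3 tested endothelial markers 1, Tek, was called lower, against 5.48% of all genes. Kdr of that list lay the other way, at 1.59 ± 0.426 and 2.14 ± 0.201 CPM (0.43, edgeR adjusted p = 0.0899).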

How the data were processed

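Poly(A)-selected, strand-marked libraries were made from 6 samples. The deposited values were whole read counts of each gene symbol, in 1 list per sample. The submitters' processing notes name bcl2fastq, TopHat2, HTSeq and mm9, and the study's text gives no versions or strand setting. Reads outside genes stayed out of library sizes. By the tally lines they were 12.7% to 13.02% of the reads on genes, outside genes or ambiguous. Alignments that were not unique, 39.06% to 39.8% once added to that total, stayed out as well.

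Counts were used as deposited in edgeR 4.0.16 (R 4.3.3) with TMM scaling, filterByExpr (minimum count 10), glmQLFit and glmQLFTest, two-sided, with Benjamini-Hochberg adjustment over 13117 genes. The fit held the 2 groups of 3 samples. CPM used library sizes scaled by TMM, with 0.1 CPM added before log2 profiles were taken. The fit was tested on simulated counts. Replicates differed by more than sampling noise (chi-square per degree of freedom 2.13 to 7.19). Alternatives were DESeq2 1.42.0, limma-voom 3.58.1, other scaling, filters and call rules, a replicate block, and leaving out each sample.

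Symbols of 12985 tested genes were matched to GENCODE M21 (GRCm38). The authors' own comparisons were not used. No protein sequence was used here.

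The members, lists and tests were chosen with earlier results of these data known. Named were all members, tested family genes, up to 4 called genes of each list, the 5 genes most like Fmod, and marker lists as wholes, with exceptions given in the text. Python 3.11.15 with pandas 2.3.3, numpy 2.4.6, scipy 1.17.1 and matplotlib 3.10.9 was used.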

Additional observations from a re-analysis of the deposited data

How the results depend on the processing

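Of 117 log2 fold changes of the members under the alternatives, 115 kept their direction and their side of the call. The exceptions were those of Omd, 0.0062 without mimic control replicate 1 and 0.0043 without miR-182-5p mimic replicate 1, both near 0, against -0.079 at the other end, without mimic replicate 3. Of 714 values of the other named genes, 694 kept both, 12 lost the call, 7 gained it and 1 turned, that of Plin1, which was 0.0087 without miR-182-5p mimic replicate 1 and -0.089 without mimic replicate 3. Leaving out 1 sample in turn gave 3 to 3 called members, counts that include Fmod, which was chosen on this contrast. Called genes in all were 902 to 1011, with 0 to 1 for the other family genes (Optc, called without miR-182-5p mimic replicate 1) and 1 to 3 for growth factors and receptors. Optc was also called when at least 10 counts were required in every sample, which gave 1 called gene of that list.

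Without a fold cutoff the counts were 7 members, 6124 genes in all, 2 other family genes, 9 for chondroitin and dermatan sulfate synthesis, 4 for keratan sulfate synthesis and tyrosine sulfation, 8 collagens, 8 proteases and enhancers, 11 growth factors and receptors and 14 other core proteins. Against a 1.5-fold change itself (glmTreat) they were 298 genes in all (52 higher and 246 lower), 1 (Lum) of the 8 members other than Fmod, 0 for keratan sulfate synthesis and tyrosine sulfation, 2 proteases and enhancers, 1 growth factor or receptor and 1 other core protein. That stricter rule needs a fold clearly above 1.5 by its construction.

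Both groups carry the replicate numbers 1 to 3 in their labels, but same-numbered samples did not deviate together (correlations from -0.185 to -0.044, over genes). With the replicate block 3 members and 925 genes in all were called, 921 of them also called without it, and no member's call changed. The median log2 fold change of all genes lay between -0.022 and -0.000148 under all settings. Depth limited Omd, with 150 to 173 reads a sample, and genes near or under 1 CPM such as Optc and Chad.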

Other observations

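Around Fmod and Prelp on chromosome 1 (GRCm38), 13 other genes within 500 kb of the cluster were tested, and 9 were higher and 1 lower with the mimic by edgeR adjusted p alone, where 23.2% and 23.5% of all genes were. Their log2 fold changes ran from -0.28 to 0.42 with a median of 0.15, all below that of Fmod (1.16). Around Aspn, Omd and Ogn on chromosome 13, 4 of 8 tested neighbours were higher and 1 lower, with log2 fold changes from -0.81 to 1.43. Around Bgn on chromosome X, 4 of 17 were higher and 6 lower, and around Podn on chromosome 4, 2 of 15 were higher and 4 lower. No other gene within 500 kb of Dcn and Lum passed the filter on low counts. Neighbours share a region and are not replicates.

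Of the genes of tendon, bone and cartilage, tissues rich in these proteoglycans, Runx2 (42.5 CPM in controls) and Sox9 (16.9 CPM) had the highest levels. Of 10 listed, 5 passed the filter, 2 were called higher and none lower, where 1.97% and 5.48% of all genes were. The sum of the list was 64.5 to 68.3 CPM in controls and 75.8 to 77.3 CPM with the mimic. Sp7 (osterix) rose from 4.55 ± 0.281 to 7.59 ± 0.64 CPM (log2 fold change 0.74, edgeR adjusted p = 4.27e-05). Scx (scleraxis) was at 0.36 ± 0.121 and 0.709 ± 0.191 CPM, with 7 to 24 reads a sample, and its edgeR adjusted p of 0.0314 was 0.10 in DESeq2. Its call held in 2 of 6 fits that left out 1 sample and was lost without mimic control replicate 1 or 3 or mimic replicate 1 or 2 (adjusted p 0.0507 to 0.134), which leaves 1 called gene. Runx2 rose (0.34) while Sox9 (-0.40) and Tnmd (-0.58) fell by edgeR adjusted p (1.49e-05, 1.22e-04 and 0.0301). Of 4 mesothelial markers only Krt19 was tested and it rose (0.80, edgeR adjusted p = 3.20e-06), while Msln, Upk3b and Wt1 were near 0. The part of these genes in the levels of the proteoglycans was not tested.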
